A study of Mus musculus with 4 samples.

Results

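The 10 transcription factors that direct the myeloid lineage, Spi1, Cebpa, Cebpb, Cebpe, Irf8, Gfi1, Runx1, Myb, Klf4 and Gata2, were examined in LICs of the murine MLL-AF9 leukemia. They were chosen by name and function, with no measured value in the rule, and all 10 were found among the 27179 genes of the deposited table. RNA-sequencing covered 4 libraries, 2 labelled WT and 2 labelled CD274-null. Both groups came from C57BL/6 bone marrow at an age of 6 weeks, and the labels give the cell type as LSC and the genotypes as wild type and CD274-/-. Both groups carry the same oncogene: a retrovirus with MLL-AF9 and YFP was put into Lin- fetal liver cells, which were then transplanted into irradiated C57BL/6 hosts. LICs of this model are the Mac-1+/c-Kit+ cells. The labels say that sorted LSCs were sequenced, whereas the study's sequencing methods speak of RNA from tissue, so the gate of the sequenced RNA is not certain. Neither the transplantation round nor a YFP gate is stated for the sequenced RNA, and the exons removed in the CD274-null mice are not given in the sources used here. The deletion was in the transplanted cells, not in the hosts. The comparison asks how leukemia cells without CD274, the ligand of the PD-1 receptor, differ in gene expression from WT leukemia cells.

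PU.1, encoded by Spi1, and the C/EBP proteins are the factors that commit progenitors to the myeloid lineage and switch on its receptors and granule genes. IRF8 and KLF4 favor monocytes, C/EBPε and GFI1 favor granulocytes, and RUNX1, MYB and GATA2 maintain the stem and progenitor state. MLL-AF9 leukemia resembles granulocyte and monocyte progenitors, its cells depend on MYB, and C/EBPα is needed for it to arise.

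Promoter sequence is shown for the members whose values ranged most widely between the libraries, Gata2, Irf8 and Klf4, together with the first start site of Gfi1, which held the largest number of motif matches. RefSeq start sites of GRCm38.p6 were given for 8 of the 10 genes, in 12 windows of 250 bases that end just before the start. Capitals mark a match to any of 8 motifs on either strand.
Gata2 (chr6:88193641-88193890, plus strand): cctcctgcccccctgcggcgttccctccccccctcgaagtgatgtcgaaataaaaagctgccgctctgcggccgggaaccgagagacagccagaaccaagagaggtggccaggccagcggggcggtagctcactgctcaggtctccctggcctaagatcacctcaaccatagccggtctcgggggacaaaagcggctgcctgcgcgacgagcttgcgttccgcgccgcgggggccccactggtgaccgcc
Gata2 (chr6:88198414-88198663, plus strand): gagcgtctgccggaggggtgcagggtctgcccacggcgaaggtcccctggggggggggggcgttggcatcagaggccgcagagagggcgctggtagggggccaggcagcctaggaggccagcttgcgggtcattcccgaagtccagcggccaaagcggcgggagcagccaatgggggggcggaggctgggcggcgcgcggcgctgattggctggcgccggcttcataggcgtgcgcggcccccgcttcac
Irf8 (chr8:120736108-120736357, plus strand): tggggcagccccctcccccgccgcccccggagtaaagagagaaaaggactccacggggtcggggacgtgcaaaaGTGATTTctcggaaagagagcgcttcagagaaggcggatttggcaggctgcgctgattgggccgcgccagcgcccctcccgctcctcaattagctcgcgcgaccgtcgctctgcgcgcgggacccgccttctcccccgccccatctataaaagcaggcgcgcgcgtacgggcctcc
Klf4 (chr4:55532476-55532725, minus strand): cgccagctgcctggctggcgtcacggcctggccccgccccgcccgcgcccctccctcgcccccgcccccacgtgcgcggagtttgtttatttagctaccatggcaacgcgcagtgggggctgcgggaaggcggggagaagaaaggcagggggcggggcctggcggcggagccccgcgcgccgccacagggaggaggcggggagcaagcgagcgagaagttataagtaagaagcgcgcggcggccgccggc
Gfi1 (chr5:107725806-107726055, minus strand): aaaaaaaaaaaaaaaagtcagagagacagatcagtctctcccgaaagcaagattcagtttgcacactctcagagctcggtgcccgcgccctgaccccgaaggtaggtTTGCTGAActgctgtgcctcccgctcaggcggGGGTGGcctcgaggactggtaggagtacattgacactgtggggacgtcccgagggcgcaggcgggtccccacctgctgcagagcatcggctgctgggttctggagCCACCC

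The motifs searched were GAGGAA for PU.1 (found in 23.3% of 32851 windows of the same length), TTGCNNAA for C/EBP (9.56%), TGTGGT for RUNX (14.0%) and TAACNG for MYB (19.8%). AGATAA was used for GATA (9.99%), GAAANNGAA for IRF (7.13%), CCACCC for KLF (28.1%) and AAATCAC for GFI1 (2.75%). In the Irf8 window shown the GFI1 letters lie on the strand opposite to the gene, from 176 to 170 bases before the start, and the window of a second Irf8 start held no match. In the Gfi1 window shown a C/EBP match lies from 143 to 136 bases before the start, beside 2 KLF matches. KLF letters occurred in 4 of the 12 windows, those of Gfi1, Cebpa, Cebpb and Myb, and Runx1 had a MYB match at one start and a PU.1 match at another. No match was found in either Gata2 window or in the Klf4 window, which says only that these letters are not in these bases. A match is a description of the letters and not a binding site.

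FPKM, the deposited unit, is the number of fragments per gene scaled by gene length and by library size. Each value equals a whole number of reads times a constant of its gene and library, and the reads recovered in this way summed to between 8377230 and 10946466 per library, with 16344 to 17038 genes above 0. Cd274 itself (chr19) did not separate the labels, at 2.80 and 0.945 FPKM in WT against 1.43 and 2.29 in CD274-null (adjusted p = 0.955, limma with the Benjamini-Hochberg method). Every direction given here therefore rests on the labels. Xist stood at 2.57 and 51.1 FPKM in WT against 107 and 68.7 in CD274-null, and the sum over Y-linked Ddx3y, Eif2s3y, Kdm5d and Uty at 86.0 and 66.2 against 0.0460 and 29.4, so the libraries differ in sex composition within and between the groups. Of the gate markers, Itgam, which encodes the α chain of Mac-1, had 140 and 174 FPKM in WT against 100 and 164 in CD274-null (adjusted p = 0.692, limma). Kit had 6.59 and 18.2 against 16.2 and 19.5 (adjusted p = 0.551, limma), so the first WT library had the lowest Kit level. The labels do not say whether the libraries of a group came from separate animals, so p-values measure only the spread between these libraries. In bulk RNA, fewer cells of a type and less RNA per cell cannot be told apart.

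All 10 factors passed the filter of a mean FPKM of at least 0.5 and were among the 13230 genes tested with limma on log2(FPKM + 0.5). Log2 fold changes are CD274-null relative to WT on this scale, which understates changes of low genes. None of the 10 was called at an unadjusted p under 0.01 with a fold change above 1.5, where 3.63% of all tested genes were, and none was called with voom on the recovered reads either. Over all genes, 2.39% were called higher and 1.24% lower in the libraries labelled CD274-null, or 316 and 164 genes. That split was 253 and 210 after quantile normalization, 247 and 200 with libraries scaled to equal medians, and 160 and 162 after a correction for GC content. At an unadjusted p under 0.05 in limma, 2 of the 10 factors passed, Irf8 and Cebpe, against 13.7% of all tested genes. At an adjusted p under 0.05, 0 of the 10 passed, against 0.0756% of all genes. Both CD274-null values were above both WT values for 5 of the 10, namely Cebpa, Cebpe, Irf8, Gfi1 and Myb, where the share over all tested genes was 25.6%. Both were below for 1 of the 10, Spi1, against 21.8%. The fitted value was positive for 8 of the 10 and negative for Spi1 and Cebpb, with a median of 0.47 beside 0.01 over all tested genes. That median was 0.29 after the GC correction, 0.23 without the first WT library and 0.17 without the second CD274-null library, where 5 of the 10 were positive.

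**Figure D1:**
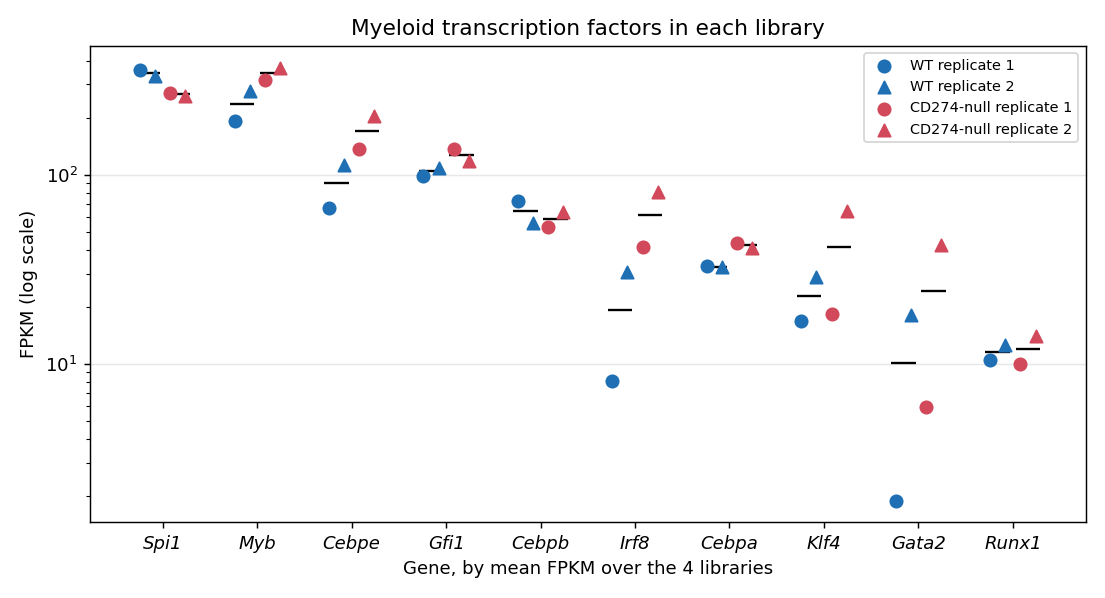
FPKM of the 10 transcription factors in each of the 4 libraries, on a log axis, with 1 point per library and a bar at the mean of each group. The groups lie apart for Spi1, Cebpa, Cebpe, Irf8, Gfi1 and Myb and overlap for Cebpb, Runx1, Klf4 and Gata2.

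Among the factors that open the myeloid program, Spi1 and Cebpa differed in opposite directions with little spread inside the groups, and neither passed the test. Spi1 (gene 20375, chr2:91082374-91115759 of GRCm38), the ETS factor PU.1, had an FPKM of 356 and 332 in WT against 271 and 260 in CD274-null, from 3197 to 5483 reads. The means were 344 ± 16.9 and 266 ± 7.98 (SD, n = 2 each), and both CD274-null libraries lay below both WT libraries. Its log2 fold change was -0.37 (standard error 0.22, 95% interval -0.90 to 0.16, adjusted p = 0.495, limma). Cebpa (gene 12606, chr7:35119293-35121928) encodes C/EBPα, without which granulocyte and monocyte progenitors do not form. Its FPKM was 32.7 and 32.4 in WT against 43.7 and 40.8 in CD274-null, or 32.6 ± 0.221 and 42.3 ± 2.0, with both CD274-null libraries above both WT libraries. The log2 fold change of Cebpa was 0.37 (standard error 0.20, 95% interval -0.11 to 0.85, adjusted p = 0.456, limma). The ratio of Spi1 to Cebpa FPKM was 10.9 and 10.2 in WT against 6.21 and 6.36 in CD274-null, given as a description without a test. Both values moved under a correction for GC content, which is 58.9% for Spi1 and 62.6% for Cebpa. After the correction the log2 fold change of Spi1 was -0.63, which passed an unadjusted limit of 0.05 in limma, and that of Cebpa was 0.10, which did not.

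Cebpb did not separate the groups, whereas Cebpe was higher in both libraries labelled CD274-null without passing the adjusted test. Cebpb (gene 12608, chr2:167688915-167690432), the C/EBP factor of stress granulopoiesis and of macrophages, had an FPKM of 72.5 and 55.4 in WT against 52.6 and 63.8 in CD274-null. The groups overlapped, and the log2 fold change was -0.13 (standard error 0.24, 95% interval -0.70 to 0.44, adjusted p = 0.843, limma). Tmem189 overlaps Cebpb on the opposite strand, at an FPKM between 22.0 and 25.1, and reads of the pair cannot be told apart where counting ignores strand, a setting not given in the sources used here. Annotated transcripts on the opposite strand also overlap Cebpa, Gfi1, Runx1 and Myb, and they have no value of their own in the table. Cebpe (gene 110794, chr14:54710363-54712174) encodes C/EBPε, which drives the secondary granule genes of neutrophils. Its FPKM was 66.5 and 113 in WT against 136 and 203 in CD274-null, from 953, 1428, 1487 and 2508 reads. The means were 89.9 ± 33.1 and 170 ± 47.8 (SD, n = 2 each), the groups did not overlap, and the gap between 113 and 136 was smaller than the distance inside either group. The log2 fold change of Cebpe was 0.93 (standard error 0.34, 95% interval 0.12 to 1.75, adjusted p = 0.333, limma). It was 0.66 after the GC correction, and there, without the trend and without moderation it no longer passed an unadjusted limit of 0.05. It ran from 0.55 without the first WT library to 1.31 without the second.

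Of the factors that divide monocytes from granulocytes, Irf8 showed the largest fitted difference of the 10 genes with all libraries, although Gata2 exceeded it without the second WT library or the first CD274-null library. Irf8 (gene 15900, chr8:120736358-120756694), which drives monocyte and dendritic cell fate and restrains granulocytes, had an FPKM of 8.10 and 30.4 in WT against 41.6 and 81.4 in CD274-null. These values rest on 265, 876, 1040 and 2292 reads, so the counting error is small beside the distances between the libraries. The first WT library was the lowest and the second CD274-null library the highest, 10 times apart, and the groups did not overlap. The means were 19.3 ± 15.8 and 61.5 ± 28.1 (SD, n = 2 each) and the log2 fold change was 1.85 (standard error 0.62, 95% interval 0.34 to 3.36, adjusted p = 0.313, limma). In a linear model that does not borrow the spread of other genes, Irf8 did not pass the unadjusted limit of 0.05. Leaving out the first WT library brought the log2 fold change to 0.92 and leaving out the second to 2.77. Its sign could not change in such fits, because the groups do not overlap. The annotation places Irf8 inside Gm20388, a protein-coding gene on the same strand with no value of its own in the table, and reads of the pair cannot be told apart here. Dendritic cell markers summed to 39.4 and 51.0 FPKM in WT and to 56.0 and 58.7 in CD274-null. In that list 3 of 10 genes passed the filter, and Bst2, the highest, made up most of the sum. Low genes of the list were also higher in both CD274-null libraries, such as Itgax at 0.344 and 1.02 against 1.49 and 2.10 FPKM, Cd209a at 0.0582 and 0 against 0.838 and 1.02, and Clec9a at 0.0262 and 0.0298 against 0.309 and 0.488. Siglech was at 0 in both WT libraries and at 0.142 and 0.126 in CD274-null, and Xcr1 was at most at 0.221 with groups that overlap. Flt3, the remaining gene of the list that passed the filter beside Bst2 and Itgax, had 2.46 and 11.9 FPKM against 12.8 and 5.93 and also overlapped, as did Zbtb46, at most at 0.0883. B cell markers, a lineage that also expresses Irf8, summed to 13 and 37.5 against 38.1 and 40.1 FPKM, nearly all of it from Cd79b. Only 1 of these 10 genes passed the filter, and Pax5 was at 0 in both WT libraries and at most at 0.416 in the CD274-null libraries. Plasma cell markers, with 5 of 10 passing the filter, summed to 196 and 90.2 FPKM in WT against 411 and 471 in CD274-null, and 3 of them were called higher. Igkc, an immunoglobulin light chain, had 8.64 and 7.98 against 214 and 189 (adjusted p = 0.00245, limma), and Jchain had 0.370 and 0.514 against 12.3 and 10.5 (adjusted p = 0.0369, limma). Ighm had 9.04 and 14.1 against 49.1 and 162 FPKM (adjusted p = 0.247, limma). These 3 genes were higher in the same libraries as Irf8, and Xbp1, the highest of the list by its mean, overlapped between the groups. The part of these cell types in the Irf8 difference was not tested.

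Klf4 and Gfi1, on opposite sides of the same branch, gave no call. Klf4 (gene 16600, chr4:55527137-55532475), a zinc finger factor of inflammatory monocytes, had an FPKM of 16.8 and 28.8 in WT against 18.3 and 64.1 in CD274-null. The second CD274-null library stood above the other 3, and the groups overlapped. The log2 fold change was 0.63 (standard error 0.58, 95% interval -0.79 to 2.05, adjusted p = 0.656, limma), and it was -0.26 without that library. Gfi1 (gene 14581, chr5:107716655-107725805), the repressor that secures granulocyte fate, had an FPKM of 98.1 and 109 in WT against 137 and 118 in CD274-null, or 104 ± 7.75 and 127 ± 13.9. Its groups did not overlap, and the log2 fold change was 0.30 (standard error 0.21, 95% interval -0.21 to 0.80, adjusted p = 0.558, limma). After the GC correction it was 0.06. GFI1 and IRF8 oppose each other in normal progenitors, and the ratio of Gfi1 to Irf8 FPKM was 12.1 and 3.59 in WT against 3.30 and 1.45 in CD274-null. That ratio spanned more inside the WT group than between the nearest libraries of the groups.

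The factors of the stem and progenitor state gave 3 different patterns. Myb (gene 17863, chr10:21124930-21160984), required for progenitor proliferation and for MLL-AF9 leukemia, was among the highest at 192 and 277 FPKM in WT against 318 and 368 in CD274-null, from 8400 to 13848 reads. The groups did not overlap, with means of 235 ± 60.2 and 343 ± 35.6, and the log2 fold change was 0.57 (standard error 0.27, 95% interval -0.08 to 1.22, adjusted p = 0.412, limma). Myb exceeded Spi1 in both CD274-null libraries and in neither WT library, with ratios of 1.17 and 1.42 against 0.541 and 0.836. Runx1 (gene 12394, chr16:92601466-92826074), the DNA-binding subunit of core binding factor, was the lowest of the 10 by its mean over the 4 libraries, at 10.5 and 12.5 against 9.96 and 14.1 FPKM. Its groups overlapped fully, and the log2 fold change of 0.05 had a 95% interval from -0.63 to 0.73 (adjusted p = 0.955, limma). Gata2 (gene 14461, chr6:88193891-88207032), which maintains stem cells and drives mast cells and basophils, differed more inside each group than between them. Its FPKM was 1.89 and 18.2 in WT against 5.93 and 42.3 in CD274-null, from 71, 602, 170 and 1366 reads. The second library of either group was far above the first, and the highest library was 22.4 times the lowest. The log2 fold change of 1.31 had a standard error of 1.17 and a 95% interval from -1.52 to 4.14 (adjusted p = 0.642, limma), and without the first WT library it was -0.18. Mast cell and basophil markers summed to 42 and 50.1 FPKM in WT against 79.5 and 110 in CD274-null, with 4 of 10 passing the filter and Fcer1a, Cma1 and Tpsb2 at 0 in all 4 libraries. Prss34, Gzmb and Cyp11a1 of that list, below the filter, were higher in both CD274-null libraries. The 4 tested genes all had positive fitted values, with groups that overlapped for Cpa3 and Mcpt8. Hdc, the highest, had 22.1 and 11.0 FPKM in WT against 30.9 and 50.3 in CD274-null, Cpa3 had 8.45 and 6.49 against 7.86 and 43.1, Mcpt8 had 10.3 and 32.1 against 37.2 and 14.8, and Ms4a2 had 0.856 and 0.583 against 2.80 and 1.29. Hdc and Cpa3 were highest in the library with the most Gata2, and Mcpt8 was not. The part of such cells in the Gata2 values was not tested.

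**Figure D2:**
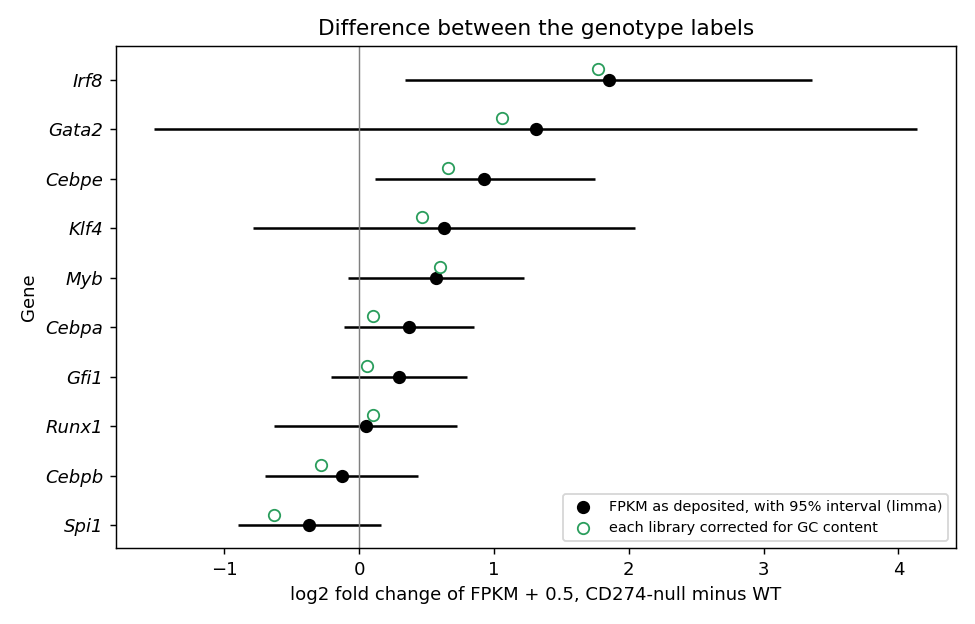
Log2 fold change of each factor, CD274-null relative to WT on log2(FPKM + 0.5), with the 95% interval from limma. The intervals of Irf8 and Cebpe lie above 0 and the other 8 include it.

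By mean FPKM over the 4 libraries, a measure scaled to gene length, the order was Spi1 (305), Myb (289), Cebpe (130), Gfi1 (116), Cebpb (61.1), Irf8 (40.4), Cebpa (37.4), Klf4 (32.0), Gata2 (17.1) and Runx1 (11.8). Spi1 stood at percentile 98.7 of the tested genes and Runx1 at 49.3. Only Gfi1 and Cebpb had ranges over the 4 libraries that did not overlap, so other neighbors in this order do not differ beyond their spread. Within a library the order was firmer for some pairs. Myb exceeded Cebpe in 4 of 4 libraries and Klf4 exceeded Gata2 in 4 of 4, while Spi1 exceeded Myb in 2. Irf8 exceeded Cebpa in 1 library only, so its higher mean rests on the second CD274-null library. The ratio of Cebpe to Cebpa, the late to the early granulocytic C/EBP, was 2.03 and 3.49 in WT against 3.11 and 4.98 in CD274-null, which overlap.

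The distance between the libraries of a group was small for some factors and large for others. The difference between the WT libraries was smaller for Cebpa than for all but 2.8% of the tested genes, and Spi1 stood at percentile 16.0 in WT and at 12 in CD274-null. Gata2 lay at the other end, with percentiles of 99.4 and 99.5, and its second library was 2.97 (WT) and 2.74 (CD274-null) higher on the log2 scale. Irf8 stood at percentiles 97.4 and 92.8, and Klf4 at 80.5 and 98.0. The second library was higher than the first in both groups for Cebpe, Irf8, Runx1, Myb, Klf4 and Gata2, which is 60.0% of the factors beside 19.0% of all tested genes. The same held for 52.0% of 25 progenitor genes, 44.4% of 27 monocyte genes and 0 of 26 granulocyte genes. These shares are descriptions, and the replicate numbers name libraries without giving them an order. Neutrophil markers, summed, were at 43416 and 8753 FPKM in WT and at 18327 and 31380 in CD274-null, so the groups overlapped in the sum, which S100a8 and S100a9 lead. In 2 of the 10 the groups did not overlap, beside 47.3% of all tested genes. Ltf, a secondary granule gene, had 109 and 7.74 FPKM against 117 and 216 (adjusted p = 0.403, limma), and Ly6g had 4.27 and 0.485 against 8.10 and 19.1 (adjusted p = 0.296, limma).

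**Figure D3:**
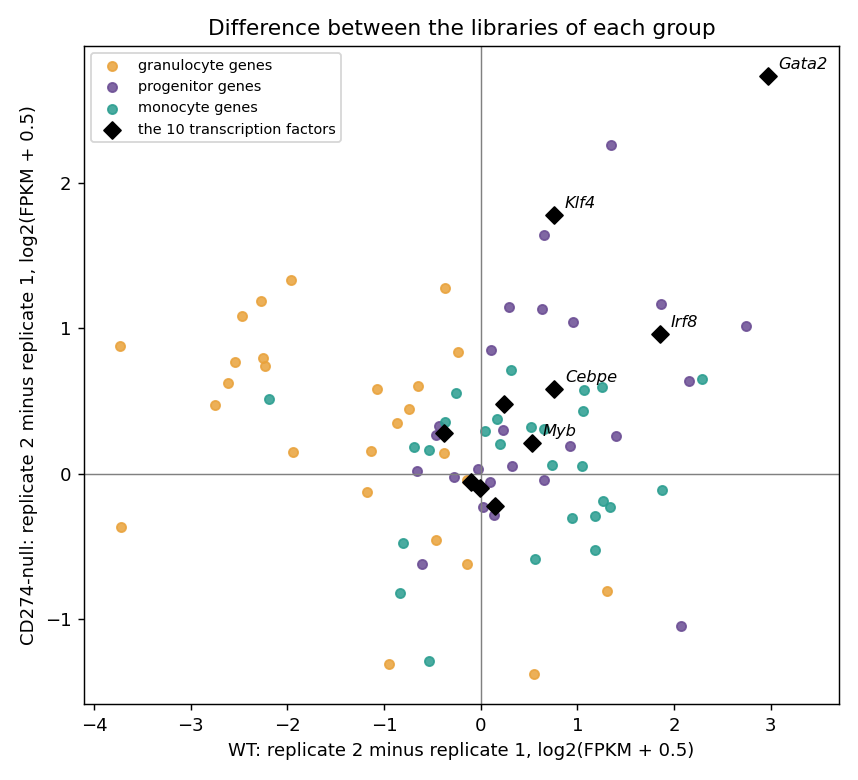
Difference between the second and the first library on log2(FPKM + 0.5), in WT (horizontal) and in CD274-null (vertical), for the 10 factors and the tested genes of the granulocyte, progenitor and monocyte lists. Gata2, Irf8, Klf4, Cebpe, Myb and Runx1 (not lettered) lie in the upper right, where the second library is higher in both groups, and no granulocyte gene does.

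The sign depended on the library used for the 4 factors whose groups overlap, and the size for others too. When the libraries were dropped one by one, the log2 value ran from -0.32 to 0.06 for Cebpb, from -0.19 to 0.29 for Runx1, from -0.26 to 1.52 for Klf4 and from -0.18 to 2.79 for Gata2. The groups of the other 6 do not overlap, so their sign could not change in such a fit. Spi1 ran from -0.42 to -0.32, Cebpa from 0.32 to 0.42, Gfi1 from 0.18 to 0.41 and Myb from 0.30 to 0.83. Without the second WT library the log2 value was 1.31 for Cebpe and 2.77 for Irf8, and without the first it was 0.55 and 0.92.

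**Figure D4:**
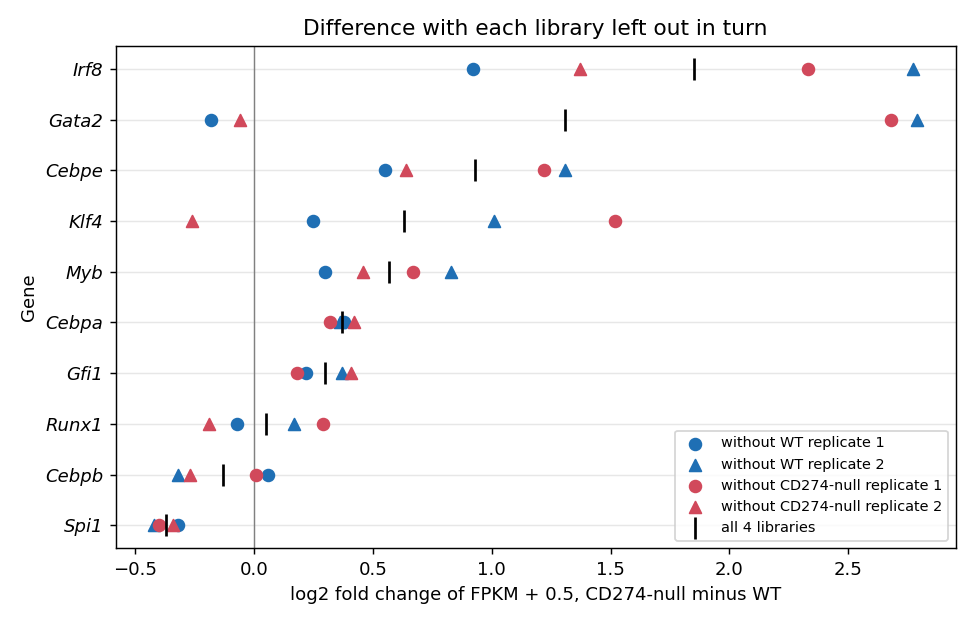
Log2 fold change of each factor with all 4 libraries and in the 4 fits that drop 1 of them. The points of Gata2 and Irf8 spread most widely, those of Gata2, Klf4, Cebpb and Runx1 cross 0, and those of Spi1 and Cebpa lie close together on either side of it.

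The partners and regulators of these factors gave no call. Of 47 listed genes 41 were tested, and 16 had a positive and 25 a negative value, with a median of -0.15. At an unadjusted p under 0.05, 1 was higher and 2 were lower, or 7.32% beside 13.7% of all tested genes. The lowest p was that of Irf1, an interferon-induced factor of the IRF8 family, at 14.7 and 12.9 FPKM in WT against 22.0 and 46.5 in CD274-null (1.19 on the log2 scale, standard error 0.37, adjusted p = 0.299, limma). Both CD274-null libraries were above both WT libraries for Irf1, as for Irf8. Fos, the AP-1 subunit with the highest FPKM of the list, had 509 and 424 against 185 and 625 and did not separate the groups (adjusted p = 0.747, limma). Chosen after its values were seen, Cbfb, the partner subunit of RUNX1, had 66.7 and 66.9 FPKM in WT against 51.5 and 41.7 in CD274-null (log2 fold change -0.52, adjusted p = 0.356, limma).

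Of 28 monocyte genes that PU.1, IRF8 and KLF4 are known to activate, 27 were tested, 12 with positive and 15 with negative values and a median of -0.06. Called genes were 1 higher and 1 lower, or 7.41% of the list beside 3.63% of all tested genes. Cd68, a lysosomal protein of macrophages, was higher, with 51.5 and 58.1 FPKM in WT against 86.9 and 113 in CD274-null (0.85 on the log2 scale, standard error 0.23, adjusted p = 0.274, limma). Cd14, the co-receptor for lipopolysaccharide, was lower, with 57.4 and 39.6 against 23.2 and 26 (log2 fold change -0.94, standard error 0.25, adjusted p = 0.274, limma). Both calls were lost after quantile normalization, with equal medians, without the trend and with voom on recovered reads. The Cd68 call was also lost when any 1 library was left out, and the Cd14 call when any but the second WT library was. Without the filter on the mean the Cd14 call was lost, and after the GC correction that of Cd68. Marrow macrophage markers, with 7 of 10 passing the filter, summed to 171 and 189 FPKM in WT against 112 and 145 in CD274-null. That was the direction of Cd14 and Spi1, but most of the difference in the sum came from Vcam1. Vcam1 was called lower, with 117 and 92.3 against 53.7 and 59.8 (adjusted p = 0.272, limma), and Adgre1 overlapped, with 22.2 and 47.1 against 28.4 and 42.6. Fitted values were negative for Vcam1, C1qb, Cd163 and Hmox1 and positive for C1qa, C1qc and Adgre1. The part of such cells in these values was not tested. Lyz2, the lysozyme of myeloid cells and the highest gene of the list, had 435 and 683 FPKM against 704 and 871 (adjusted p = 0.510, limma).

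All 26 granulocyte genes that C/EBP factors and GFI1 govern were tested, with 17 positive and 9 negative values, a median of 0.19 and 1 call, or 3.85% beside 3.63% of all tested genes. The call was Mpo, the myeloperoxidase of primary granules and a target of C/EBPα, RUNX1 and MYB. Mpo had 444 and 403 FPKM in WT against 1427 and 925 in CD274-null (1.44 on the log2 scale, standard error 0.31, adjusted p = 0.251, limma). This call was lost when any 1 library was left out and when genes were not filtered on their mean. S100a9, a calcium-binding protein of mature neutrophils and the highest gene of the list, had 16802 and 3590 FPKM against 6656 and 11155 (adjusted p = 0.951, limma). It was highest and lowest in the WT libraries, the reverse of Irf8 and Gata2 within that group.

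Of 29 progenitor genes of the RUNX1, MYB and GATA2 network, 25 were tested, with 14 positive and 11 negative values and a median of 0.07. Called genes were 2, both lower, or 8.0% of the list. Of all tested genes 3.63% were called in either direction and 1.24% lower. Cdk6, the cyclin-dependent kinase that MLL fusions and RUNX1 regulate, had 102 and 112 FPKM in WT against 47.5 and 38.9 in CD274-null (-1.31 on the log2 scale, standard error 0.21, adjusted p = 0.172, limma). Spred1, an inhibitor of RAS signaling, had 11.3 and 7.24 against 2.60 and 1.51 (log2 fold change -1.94, standard error 0.38, adjusted p = 0.251, limma). The LIM protein Lmo2, a partner of GATA factors and the highest gene of the list, had 116 and 221 FPKM against 160 and 183 (adjusted p = 0.919, limma). Over the 4 lists, 116 of 127 entries were tested, with 58 positive and 58 negative values, and 5 were called, or 4.31%, beside 3.63% of all tested genes. The linear model without moderation kept none of these 5 calls. Without the first WT library or the first CD274-null library Cdk6 alone of the 5 was kept, without the second WT library Cd14, Cdk6 and Spred1 were, and without the second CD274-null library none was. Etv6, Cebpd and Zfpm1 stand in more than 1 list.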

How the data were processed

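RNA of LICs, sorted cells per the labels, was sequenced from 4 libraries (TruSeq v2, HiSeq2500) and aligned to GRCm38. The submitters' processing notes name CASAVA 1.8.2 and TopHat2 2.0.12. The deposited values are FPKM, 1 for each gene in each library. The program, gene lengths and strand setting behind FPKM are not given in the sources used here. Libraries were grouped by their labels. NCBI gene numbers were matched to symbols for 25275 of 27179 genes. From the steps of these values, whole reads were recovered for 17083 genes (100% of the genes with a value above 0 in 2 or more libraries, tolerance 0.01). They set the depth behind each value and are lower bounds where a gene's reads share a factor.

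The groups were compared with limma 3.58.1 in R 4.3.3 (eBayes with trend) on log2(FPKM + 0.5) where the mean FPKM reached 0.5, with Benjamini-Hochberg adjustment over all 13230 genes. A gene was called where its unadjusted p lay below 0.01 with a change of over 1.5-fold, the cutoffs the study used. The study names no test for these values in particular, and Student's test for its group comparisons in general. The script was tested on simulated data. The members and gene lists were chosen with earlier results of these data known. Beside the 10 members, the genes named were the called genes of the pathway lists and each list's highest and lowest-p gene, the gate markers and Cd274. Other genes, including those shown from the cell type marker lists, were chosen after their values were seen. Alternatives were other pseudocounts and filters, quantile normalization, equal medians, eBayes without trend, no moderation, a replicate block, a GC correction (loess, span 0.3), voom on recovered reads, and leaving out each library. Some listed genes are not reported here.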

Additional observations from a re-analysis of the deposited data

How the results depend on the processing

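All 10 factors kept their direction with both other pseudocounts, quantile normalization, equal medians, the GC correction and voom, the alternatives with all libraries that can change a fitted value, and 4 factors changed sign when a library was left out. Such fits leave a group with 1 library, which is assumed to vary like the other group. Leaving out each library in turn gave 147 to 634 called genes over all tested (480 with all libraries), 0 to 2 called factors and 1 to 12 called list genes. Without CD274-null replicate 2 the count over all genes was 147 and without CD274-null replicate 1 it was 235. With a library left out, log2 fold changes ranged from -0.32 to 0.06 for Cebpb, -0.19 to 0.29 for Runx1, -0.26 to 1.52 for Klf4 and -0.18 to 2.79 for Gata2. The reversed values were Cebpb at 0.06 without WT replicate 1 and 0.01 without CD274-null replicate 1, Runx1 at -0.07 without WT replicate 1 and -0.19 without CD274-null replicate 2, Klf4 at -0.26 without CD274-null replicate 2, and Gata2 at -0.18 without WT replicate 1 and -0.06 without CD274-null replicate 2. The linear model without moderation called 170 genes, 0 list genes and 0 factors, and there Spi1 and Cebpa, not Irf8 and Cebpe, passed an unadjusted limit of 0.05. Quantile normalization, equal medians, eBayes without trend and voom each called 3 list genes instead of 5. The GC correction moved Spi1, Cebpa, Cebpb, Gfi1 and Runx1 (0.05 to 0.10) by over 1.5 times, in a table where log2 fold change and GC content had a Spearman's rho of 0.271 across 11435 genes, which are not independent. For the moved counts the cause was not tested.

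The labels number the replicates, but same-numbered libraries did not deviate together (correlation -0.015 across 13230 genes), so a pairing by number was not shown. A correlation over all genes cannot exclude a pairing that acts on some of them. With the replicate block, 526 genes, 13 list genes and 3 factors (Cebpe, Irf8 and Gata2) were called, and with GC correction and replicate block 283, 8 and 2 (Irf8 and Gata2). With 2 libraries per group the intervals are wide, and a p above the threshold does not show that the groups are alike.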

Other observations

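Several relatives of the 10 factors, chosen after their values were seen, were high in the second library labelled CD274-null alone or swung inside the groups. Klf2, a relative of Klf4, had 49.1 and 78.6 FPKM in WT against 70.1 and 339 in CD274-null. Hhex, a homeobox factor, had 40.1 and 62.4 against 55.7 and 123. Cbfa2t3, the ETO-family corepressor of GATA and RUNX1 complexes, followed the order of Irf8 with 2.74 and 10.5 against 10.9 and 18.6, and its groups did not overlap (log2 fold change 1.31, adjusted p = 0.400, limma). The immediate early factors Egr1 and Jun went another way. Egr1, which acts with PU.1 in macrophages, had 489 and 81.3 FPKM against 21.8 and 318, and Jun had 491 and 444 against 127 and 650. None of these 5 genes was called in limma with all libraries and no block, while Klf2 and Cbfa2t3 were called with the replicate block. The leukemia genes Hoxa9, at 75.8 and 74.3 against 71.3 and 72.9 FPKM, and Meis1, at 35.6 and 36.3 against 44.6 and 37.9, had narrower ranges than these factors. Ikzf1, the lymphoid and myeloid zinc finger factor Ikaros, had 114 and 72.2 FPKM in WT against 49.4 and 50 in CD274-null (log2 fold change -0.86, adjusted p = 0.299, limma).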
